A study of Caenorhabditis elegans with 16 samples.

Results

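C-type lectin genes are the members of the large clec family of Caenorhabditis elegans, which encodes proteins with a C-type lectin-like domain. They were taken here as every gene of the normalized count table whose symbol is clec- followed by a number, 235 of 29351 genes. Many proteins of this family are secreted, and some bind sugars. In the worm, a set of clec genes is known as effectors of the innate immune response: their mRNAs rise in the intestine when the animal feeds on pathogenic bacteria, in part through the p38 MAP kinase PMK-1. Other members are expressed in animals that have met no pathogen, and for most of them no function is established.

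The data are RNA-seq values from 16 samples of whole day 1 adults grown for 3 days at 20 °C, 4 samples in each of 4 groups. The strains were wild type (N2) and rnp-6(G281D), labelled rnp-6(dh1127), a hypomorphic point mutation in the worm orthologue of the human splicing factor PUF60. Each strain was fed Escherichia coli OP50, the B-type laboratory diet, or BW25113, a K12-type strain that carries more vitamin B12 than OP50. Below, rnp-6(G281D) is called the mutant, and the labels name no further mutation or treatment. The labels do not say whether replicates came from separate cultures, so p-values measure the spread between these samples, which may be technical.

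Totals of normalized counts lay between 36330400 and 38381700 per sample. The mRNA of rnp-6 itself was at 5556 ± 111 normalized counts (SD, n = 4) for N2 and 7061 ± 181 for the mutant on OP50. On BW25113 it was at 5425 ± 149.9 and 7336 ± 132. A gene level cannot show the substitution. Of 8 intestinal marker genes, including elt-2, ges-1 and vit-2, 0 were called in any comparison (limma), while 2 to 6 of them had an unadjusted p under 0.05, depending on the comparison. On OP50 some were higher in the mutant by less than the fold for a call. These were ifb-2 (log2 fold change 0.40, adjusted p = 0.000121), vit-2 (0.20, 0.000428), act-5 (0.14, 0.00519), ges-1 (0.19, 0.00713) and elt-2 (0.42, 0.00728). For elt-7, asp-1 and vit-6 the adjusted p was over 0.05. Their summed level ranged over 345085 to 351636 in wild type and 357706 to 386039 in the mutant on OP50, and over 316055 to 345248 and 331345 to 358248 on BW25113. In whole animals, fewer cells of a type and less RNA per cell cannot be told apart.

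Most C-type lectin genes were close to silent, and a few were very abundant. Of the 235 members, 105 had a mean of at least 10 normalized counts over the 16 samples and were tested. The other 130 were not: 6 were at 0 in every sample, 60 had a mean under 1, and no single value among the 130 exceeded 31.6. Among the 105, the level per transcript length (FPKM, fragments per kilobase of transcript scaled to library size) was at least 100 for 6 genes, between 10 and 100 for 17, between 1 and 10 for 38 and under 1 for 44, with a median of 1.43.

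The most abundant member was clec-87 (WBGene00007709, chrI:10184462-10185520 of WBcel235), with a mean of 1002 FPKM, 37.8% of the FPKM summed over the family. Next by mean FPKM came clec-63 at 282, clec-91 at 252, clec-88 at 204, clec-209 at 165, clec-1 at 149, clec-50 at 76.9 and clec-41 at 46.2. The groups differed in some of these genes and not in others. In FPKM, clec-88 stood at nearly 1 level across wild type and mutant on OP50 (203 ± 3.52 and 207 ± 5.11, SD, n = 4) and on BW25113 (204 ± 4.52 and 204 ± 7.72), and clec-50 was likewise called in none of the comparisons. In the same unit, clec-209 fell from 225 ± 9.45 in wild type to 117 ± 8.38 in the mutant on OP50, and clec-41 stood at 41.4 ± 6.26 and 74.3 ± 7.64. The genes clec-87, clec-91 and clec-1 were higher in the mutant on OP50 in every sample, but by less than the fold required for a call (log2FC of 0.13 ± 0.03, 0.15 ± 0.02 and 0.35 ± 0.05, SE). The same 16 values stand in the table for clec-209 (WBGene00021224) and for F56A4.2, so the level cannot be assigned to either gene alone. The sequences of the pair were not compared here. In the annotation, clec-88 overlaps ctsa-4.1 on its own strand, and clec-87 and clec-91 overlap genes on the other strand; whether strand was used in counting is not given in the sources used here.

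Summed over the family, C-type lectin genes held 0.353% ± 0.0071 (SD, n = 4) of the normalized counts in wild type and 0.404% ± 0.011 for the mutant when fed OP50. On BW25113 they held 0.343% ± 0.0065 and 0.337% ± 0.0049. The sum was thus highest in the mutant on OP50, and its 4 samples did not overlap the other groups in summed normalized counts. The sum gives most weight to abundant members, and clec-63, clec-41 and clec-87 were among those higher there. Over the 105 tested members the mutant on OP50 had 53 log2FC above 0 and 52 below, with a median of 0.0001. In summed FPKM the mutant on OP50 was also highest by its mean (2823 ± 82.6 against 2652 ± 42.4 in wild type on OP50). There the genotypes overlapped on OP50, from 2706 in the mutant to 2710.3 in wild type. The spread between replicates was similar in the groups, with a median coefficient of variation over the 105 tested genes of 11.3% and 14.1% in wild type and mutant on OP50 and of 11.8% and 14.5% on BW25113.

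A gene was called in a comparison at a Benjamini-Hochberg adjusted p under 0.05 over all 15799 genes tested (limma on log2 of the normalized count plus 1) and an absolute log2 fold change (log2FC) over 0.5. Fold changes are on that log2(count + 1) scale, which understates the change of low genes. Those given for the FPKM table are on a log2(FPKM + 0.1) scale, which does so too. By this rule 48 of the 105 tested members were called in at least 1 of the 5 comparisons and 57 in none, where 18.9% of all genes tested (2982 of 15799) were called in at least 1. In the mutant against wild type on OP50, 18 members were higher (17.1% of the 105, where 5.9% of all genes tested were called higher), and 15 were lower (14.3%, against 5.6% of all genes). On BW25113 the mutant had 4 members higher (3.81%, against 2.22% of all genes) and 14 lower (13.3%, against 3.47%). Rises were thus called for 18 members on OP50 and 4 on BW25113, and falls for nearly the same number on either diet.

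The diet comparisons were mostly falls. On BW25113 against OP50, wild type had 2 members higher (1.9%, against 0.741% of all genes) and 8 lower (7.62%, against 2.59%). The mutant had 3 higher (2.86%, against 2.15%) and 25 lower (23.8%, against 7.22%). The genotype by diet interaction, the log2 diet difference in the mutant minus that in wild type, was called for 2 members above 0 (1.9%, against 0.361%) and 11 below 0 (10.5%, against 2.06%). The median log2FC of the 105 members was 0.0001 in the mutant on OP50 and -0.02 on BW25113, and -0.07 and -0.13 for the diet in wild type and mutant, while the medians over all genes lay between -0.0033 and 0.0028. These comparisons share their groups, so their values are given side by side and not as separate evidence.

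**Figure D1:**
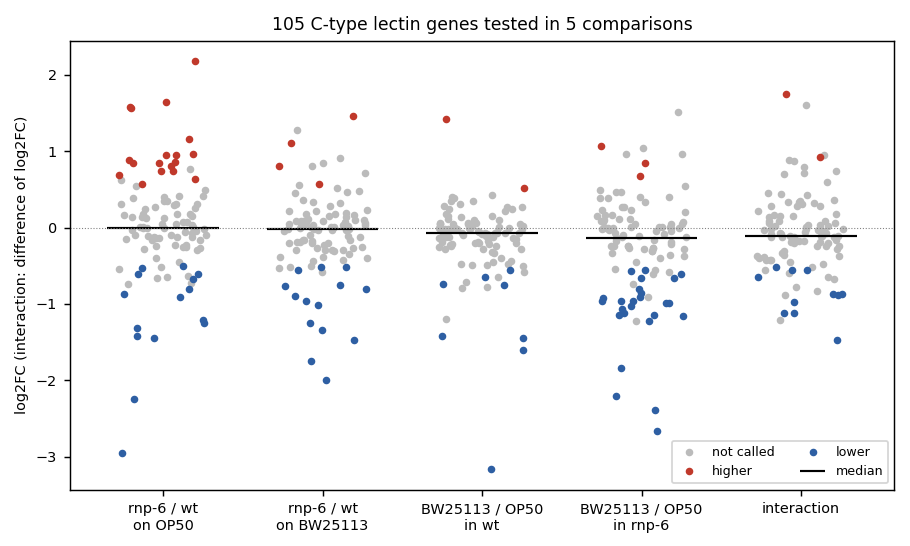
Log2FC on the log2(normalized count + 1) scale for the 105 tested C-type lectin genes in the 5 comparisons, 1 point per gene, spread sideways for visibility; red points were called higher, blue lower and grey not called, and the black line is the median of the 105 genes. The mutant on OP50 has 18 red and 15 blue points, and the diet comparison in the mutant has 25 blue points and 3 red ones.

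**Figure D2:**
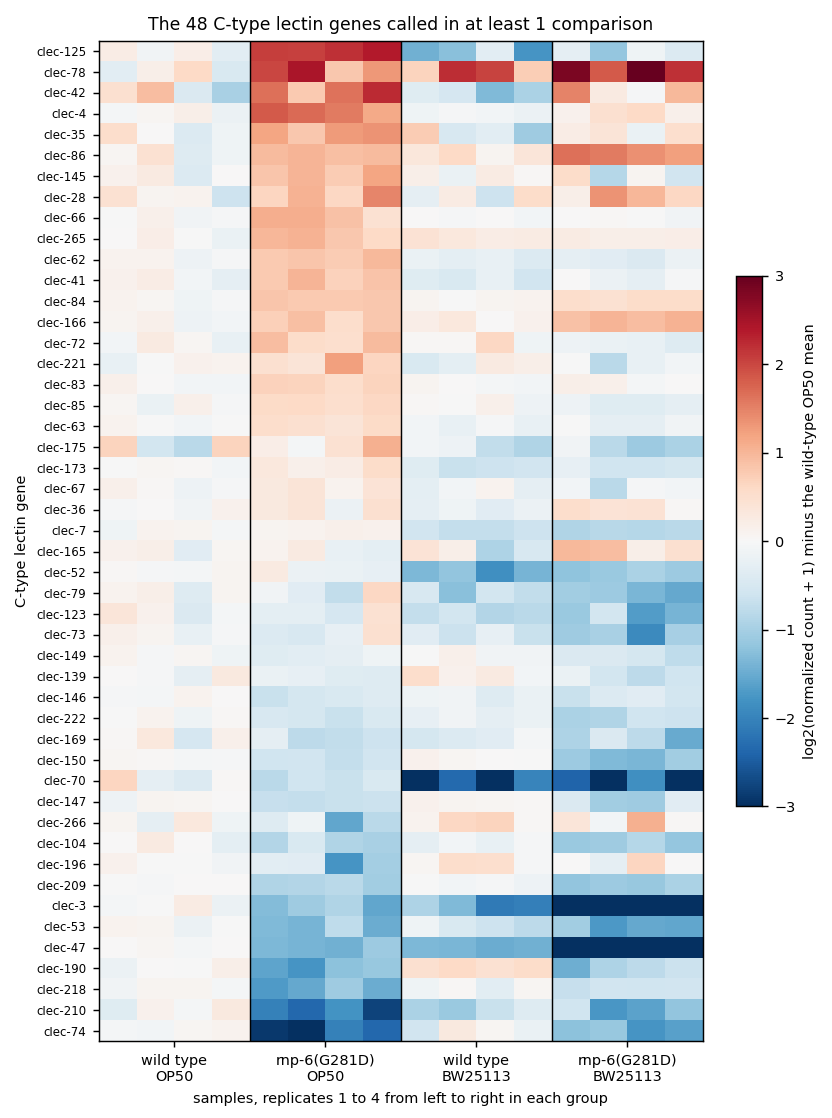
Heat map of the 48 genes called in at least 1 comparison (rows, ordered by log2FC in the mutant on OP50) in the 16 samples (columns, 4 per group). Colour is log2(normalized count + 1) minus the mean of wild type on OP50, with values beyond 3 in either direction drawn at the end of the scale. The 12 genes called higher in the mutant on OP50 and lower in it on BW25113 are paler in the mutant on BW25113 than on OP50, clec-78 and clec-86 are red in the mutant on both diets, and clec-3, clec-47 and clec-70 are the darkest blue on BW25113.

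The largest pattern among the called members was a rise in the mutant that was called on OP50 and not on BW25113. For 9 genes, clec-4, clec-41, clec-62, clec-66, clec-72, clec-83, clec-85, clec-125 and clec-265, the mutant was higher than wild type on OP50, was lower on BW25113 than on OP50, and had an interaction below 0, while neither the genotype on BW25113 nor the diet in wild type gave a call. No call on BW25113 does not mean that the genotypes were equal there. On that diet the mutant was above every wild-type sample in clec-4 and below every one in clec-72. The called differences that define the pattern all include the mutant on OP50, so they are not separate evidence. The share of all genes tested with this set of calls was not counted. Whether the pattern is more frequent in this family than among other genes was therefore not tested. Among the 9 genes, clec-62 and clec-83 lie outside the rule for named genes and were named after their values were seen. Several have known links to infection: clec-4 and clec-41 take part in the response to Bacillus thuringiensis, and clec-85 is a widely used target of the PMK-1 pathway.

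In clec-4 the normalized counts of replicates 1 to 4, the order used throughout, were 225, 242, 262 and 208 in wild type and 843, 760.04, 691 and 513 in the mutant on OP50. The BW25113 samples had 213, 228, 222 and 206 in wild type and 254, 326, 355 and 261 in the mutant. All mutant samples on OP50 stood above every other sample, and the mutant on BW25113 was above every wild-type sample on that diet. The genotype difference on OP50 was 1.56 ± 0.14 (SE) on the log2 scale (adjusted p = 1.58e-05), the diet difference in the mutant was -1.22 ± 0.15 (adjusted p = 0.000364) and the interaction was -1.11 ± 0.19 (adjusted p = 0.00142). On BW25113 the genotype difference of 0.45 ± 0.11 was under the fold for a call (adjusted p = 0.022).

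For clec-85 the normalized counts were 981, 828, 1054 and 928 in wild type and 1415, 1428, 1331 and 1445 in the mutant on OP50. Wild type on BW25113 had 968, 939, 1047 and 846, and the mutant 854, 728, 738 and 777. By its mean, the mutant was the highest group on OP50 and the lowest on BW25113, where its highest sample overlapped wild type. Its genotype difference was 0.57 ± 0.07 (SE) on OP50 (adjusted p = 0.00011) and -0.29 ± 0.07 on BW25113 (adjusted p = 0.0192, under the fold for a call), with an interaction of -0.87 ± 0.10 (adjusted p = 4.66e-05). In the FPKM table the OP50 difference was 0.49 and missed the fold. The gene overlaps Y54G2A.40 on its own strand.

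The most abundant of these genes by FPKM, clec-41, had normalized counts of 7491, 7993, 6434 and 5728 in wild type and 11851, 13868, 11109 and 12371 in the mutant on OP50. With BW25113 as food, wild type had 5328, 5005, 5908 and 4640.5 and the mutant 6873, 6111, 5674 and 6656. The mutant on OP50 did not overlap any other group. The genotype difference on OP50 was 0.84 ± 0.10 (SE; adjusted p = 0.000116) and the diet difference in the mutant -0.96 ± 0.07 (adjusted p = 8.32e-06). Its interaction of -0.56 ± 0.14 (adjusted p = 0.0237) lost the call when any of 5 of the 16 samples was left out (replicates 3 and 4 of wild type and replicate 2 of the mutant on OP50, replicate 3 of wild type and replicate 2 of the mutant on BW25113), with values of -0.63 to -0.47 over all 16 omissions.

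The highest fold in this pattern belonged to clec-125, a gene of low level. It had normalized counts of 23.1, 18.2, 22.7 and 15.7 in wild type and 85.5, 84.97, 93.5 and 107 in the mutant on OP50. Fed BW25113, wild type showed 6.57, 7.68, 15.7 and 5.08 and the mutant 16.2, 8.27, 17.96 and 14.7. Mutant samples on OP50 stood far above the rest, and in wild type 3 of the 4 samples on BW25113 were below all samples on OP50. The genotype difference on OP50 was 2.18 ± 0.18 (SE; adjusted p = 9.44e-06) and the diet difference in the mutant -2.66 ± 0.24 (adjusted p = 3.35e-05). The interaction of -1.47 ± 0.41 was just past the threshold (adjusted p = 0.0487) and lost the call in 13 of 16 omissions of a sample, with adjusted p-values of 0.0246 to 0.102. It kept the call only without replicate 4 of wild type or replicates 1 or 3 of the mutant, all on BW25113, and lost it with a pseudocount of 0.1 (adjusted p = 0.0745) and when low genes were also tested (adjusted p = 0.101).

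The remaining genes of the pattern had smaller folds. For clec-66 the normalized counts were 589.9, 659, 551 and 574 in wild type and 1261, 1265, 1094 and 819 in the mutant on OP50. For BW25113 the values were 593, 578, 593 and 563 in wild type and 599.9, 603, 583 and 549 in the mutant, and the ranges of the 3 groups other than the mutant on OP50 overlapped. Its interaction was -0.88 ± 0.14 (SE; adjusted p = 0.00102). For clec-265 they were 874, 989, 855 and 756 in wild type and 1740.2, 1774, 1514 and 1301 in the mutant on OP50. On BW25113 they were 1167, 1080.4, 1014 and 1023 in wild type and 1019, 984, 978 and 989 in the mutant, and wild type was higher on BW25113 than on OP50 by 0.31 ± 0.08, under the fold for a call, while the mutant was lower by -0.66 ± 0.08. Its interaction was -0.97 ± 0.12 (adjusted p = 8.64e-05).

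The gene clec-72 had normalized counts of 55.8, 71.7, 61.8 and 50.4 in wild type and 114, 87.7, 85.3 and 116 in the mutant on OP50. The BW25113 samples had 61.3, 60.5, 91.8 and 54.1 in wild type and 53.1, 51.6, 51.03 and 45.01 in the mutant, and the mutant on BW25113 was below every wild-type sample on that diet. Its interaction was -1.12 ± 0.24 (SE; adjusted p = 0.00976). For clec-62 the interaction was -0.86 ± 0.10 (adjusted p = 3.25e-05) and for clec-83 it was -0.55 ± 0.10 (adjusted p = 0.00405). The mutant on OP50 did not overlap wild type on OP50 or the mutant on BW25113 in any of the 9 genes. The genes were chosen by calls between these same groups, so this is no separate evidence. Of the 33 members called for genotype on OP50, 31 had no overlap between the groups. The share without overlap among all called genes was not counted, so this is no result about the family.

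**Figure D3:**
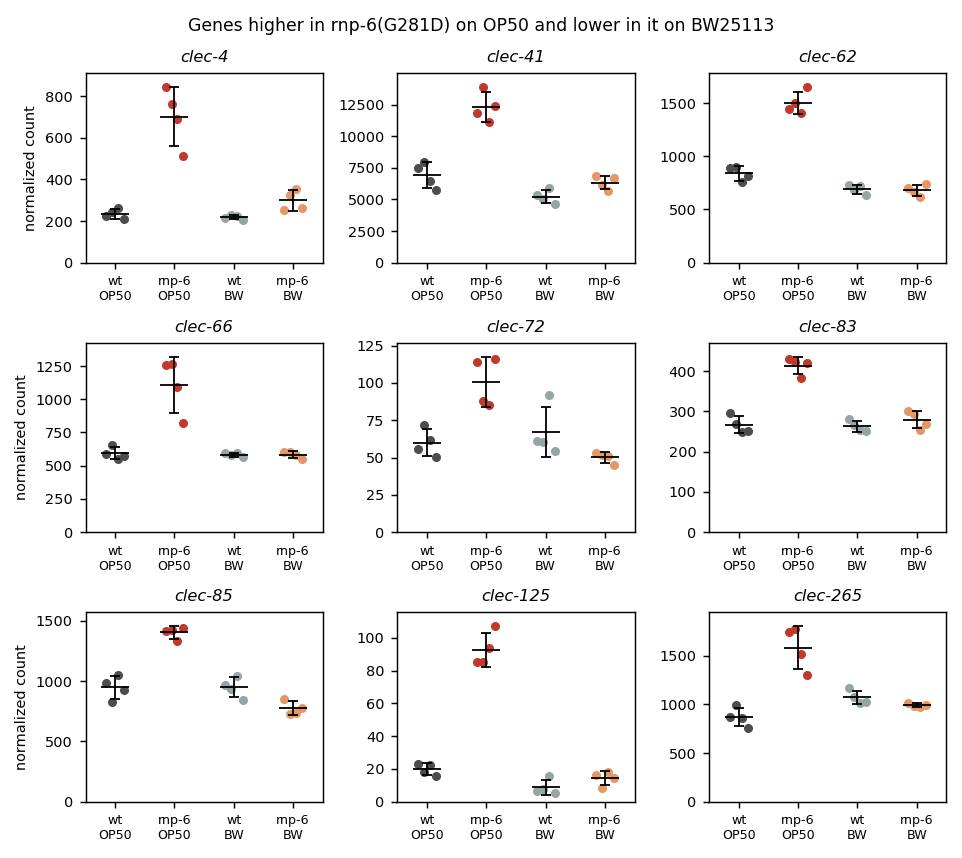
Normalized counts of the 9 genes that were higher in the mutant on OP50 and lower in the mutant on BW25113, 1 panel per gene, with the 4 samples of each group as points and the mean ± SD as a black bar; each axis starts at 0. In every panel the 4 mutant samples on OP50 lie above the 4 wild-type samples on OP50 and the 4 mutant samples on BW25113. The genes were chosen by calls between these groups.

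A further 3 genes, clec-35, clec-145 and clec-221, were also higher in the mutant on OP50 and lower in it on BW25113, without a call for the interaction. In clec-145 the mutant on OP50 had normalized counts of 82.3, 93.1, 78.5 and 105 against 49.8, 55.5, 34.02 and 46.3 in wild type, and the mutant on BW25113 had 67.1, 24.7, 48.2 and 30.4. The genotype difference on OP50 was 0.95 ± 0.18 (SE; adjusted p = 0.00235) and the diet difference -1.15 ± 0.28 (adjusted p = 0.0167). That diet call was lost without replicate 4 of the mutant on either diet (adjusted p of 0.00372 to 0.0526 over the 8 omissions) and when low genes were also tested (adjusted p = 0.0808). In clec-35, at 23.8, 18.1, 25.7 and 27.1 in the mutant and 14.7, 10.1, 7.24 and 9.08 in wild type on OP50, the genotype difference was 1.15 ± 0.26 (adjusted p = 0.0069). Its diet difference of -0.92 ± 0.25 lost the call in 4 of 8 omissions (replicates 1, 3 and 4 of the mutant on OP50 and replicate 3 on BW25113, adjusted p of 0.0289 to 0.0788), as well as with low genes tested, in a fit of all 16 samples, after quantile normalization and with the replicate number as a block (adjusted p = 0.0542, 0.0502, 0.0526 and 0.0574).

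The abundant clec-63 moved in the same way but with a smaller genotype difference. It had normalized counts of 21066, 19252, 18403 and 19534 in wild type and 28360.5, 27319, 25524 and 28918 in the mutant on OP50. Wild type on BW25113 had 18517, 16809.6, 18958 and 16738, and the mutant 19288, 16308, 16149 and 18091. Mutant samples on OP50 were above all others, by 0.49 ± 0.05 (SE) on the log2 scale against wild type on the same diet (adjusted p = 2.46e-05), just under the fold for a call. The diet difference in the mutant was -0.66 ± 0.06 (adjusted p = 3.05e-05). The interaction was -0.52 ± 0.08 (adjusted p = 0.000966), and its size fell under the fold, to as little as -0.48, in 6 of 16 omissions of a sample (replicate 3 of wild type and 4 of the mutant on OP50, replicates 1 and 3 of wild type and 2 and 3 of the mutant on BW25113).

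Some genes were higher in the mutant on both diets. For clec-86 on the X chromosome the normalized counts were 76.4, 99.999, 55.9 and 66.5 in wild type and 141, 149.8, 138 and 143 in the mutant on OP50. With BW25113 as food, wild type had 92.7, 111, 77.3 and 94.01 and the mutant 231, 218, 191 and 172, and the mutant did not overlap wild type on either diet. The genotype difference was 0.96 ± 0.16 (SE) on OP50 (adjusted p = 0.00141) and 1.11 ± 0.14 on BW25113 (adjusted p = 0.000319), the former 0.60 in the FPKM table. For clec-166 they were 204, 212, 172 and 183 in wild type and 318, 361, 277 and 339.7 in the mutant on OP50. Fed BW25113, wild type showed 221, 241, 195 and 212 and the mutant 356, 393, 366 and 397, with genotype differences of 0.74 ± 0.10 (adjusted p = 0.000337) and 0.80 ± 0.08 (adjusted p = 0.000102). In both genes the interaction was close to 0 (0.15 ± 0.22 and 0.06 ± 0.13, adjusted p = 0.783 and 0.879). The annotation places alh-10 on the other strand of clec-86.

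The third gene of this kind, clec-42, is known from Bacillus thuringiensis infection and was low, with normalized counts of 8.57, 12.1, 4.12 and 2.48 in wild type and 20.6, 10.8, 20.4 and 31.6 in the mutant on OP50. For BW25113 the values were 4.38, 3.84, 1.75 and 2.54 in wild type and 18.4, 7.23, 5.67 and 12.6 in the mutant. The groups overlapped on OP50, since replicate 2 of the mutant was below replicate 2 of wild type. The gene passed the filter on the mean only through the high values of the mutant on OP50, so its calls are no independent support. Its genotype differences of 1.58 ± 0.45 (SE) on OP50 (adjusted p = 0.0225) and 1.46 ± 0.41 on BW25113 (adjusted p = 0.0348) lost the call in 4 and 5 of 8 omissions (replicates 3 and 4 of wild type and 1 and 4 of the mutant on OP50, and replicates 2, 3 and 4 of wild type and 1 and 4 of the mutant on BW25113). The adjusted p-values ranged over 0.0116 to 0.0613 and 0.0219 to 0.0921. Both calls were lost when low genes were also tested (adjusted p = 0.0889 and 0.095). In the FPKM table the differences were 0.87 (adjusted p = 0.00949) and 0.61 (adjusted p = 0.067), the latter without a call, and with a pseudocount of 5 that on BW25113 was 0.92.

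Other genes were lower in the mutant, and most of these were lower on both diets. The 6 genes clec-53, clec-74, clec-104, clec-147, clec-209 and clec-222 were lower in the mutant on OP50 and on BW25113 and were not called for diet in either genotype. The abundant clec-209 had normalized counts of 3478, 3399, 3538 and 3523 in wild type and 1865, 1907, 1985 and 1684 in the mutant on OP50. On BW25113 they were 3450.1, 3266, 3393 and 3129.9 in wild type and 1542, 1648, 1579 and 1792 in the mutant. Wild type and mutant did not overlap on either diet, with differences of -0.91 ± 0.05 (SE; adjusted p = 3.77e-07) on OP50 and -1.01 ± 0.05 (adjusted p = 3.81e-07) on BW25113. For clec-53 they were 198, 193, 163 and 182 in wild type and 72.95, 68.7, 107 and 64.6 in the mutant on OP50. The BW25113 samples had 167, 133, 118 and 107 in wild type and 88.8, 54.5, 62.3 and 61.7 in the mutant, and the mutant was lower by -1.25 ± 0.16 (adjusted p = 0.000214) and -0.97 ± 0.18 (adjusted p = 0.00527).

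The low gene clec-74 had the largest fitted fall among the members on OP50. It had normalized counts of 20.6, 20.2, 22.7 and 23.1 in wild type and 2.06, 0, 4.53 and 3.39 in the mutant on OP50. Wild type on BW25113 had 14.2, 26.9, 22.7 and 18.6, and the mutant 8.66, 9.29, 5.67 and 6.28, and replicate 2 of the mutant on OP50 was at 0. The mutant did not overlap wild type on either diet, and the mutant on BW25113 was above the mutant on OP50 in every sample. The genotype difference was -2.95 ± 0.48 (SE) on OP50 (adjusted p = 0.00098) and -1.34 ± 0.28 on BW25113 (adjusted p = 0.0096). Its calls were kept with smaller values in the FPKM table (-1.37 and -0.77), and with a pseudocount of 5 the OP50 value was -1.87. The interaction of 1.61 ± 0.57 did not pass (adjusted p = 0.133).

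In clec-190 the mutant was lower on both diets, and wild type was higher on BW25113. Here the normalized counts were 276, 317, 307 and 353 in wild type and 104, 91.2, 133 and 142 in the mutant on OP50. With BW25113 as food, wild type had 439, 469, 430.4 and 455 and the mutant 113, 164, 180.1 and 199.6, without overlap between the genotypes. The genotype difference was -1.42 ± 0.14 (SE) on OP50 (adjusted p = 4.42e-05) and -1.48 ± 0.15 on BW25113 (adjusted p = 7.43e-05), and the diet difference was 0.52 ± 0.08 in wild type (adjusted p = 0.00276) and 0.47 ± 0.20 in the mutant (adjusted p = 0.122). The call in wild type was lost without replicate 1 on OP50 (0.46) or replicate 2 on BW25113, in the FPKM table (0.50, adjusted p = 0.00496) and in a fit of all 16 samples (adjusted p = 0.0679).

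Of the genes lower in the mutant on both diets, clec-150 and clec-218 also had a called interaction, in opposite directions. For clec-150 the normalized counts were 5106, 5049.8, 4687 and 4825 in wild type and 3265, 3309.8, 3017 and 3323 in the mutant on OP50. Fed BW25113, wild type showed 5406, 5080.03, 4939 and 4840.1 and the mutant 2299, 1962, 1887 and 2389, so wild type was level between the diets and the mutant was lowest on BW25113. The genotype difference was -0.61 ± 0.04 (SE) on OP50 (adjusted p = 1.74e-06) and -1.25 ± 0.07 on BW25113 (adjusted p = 1.07e-06), with an interaction of -0.65 ± 0.09 (adjusted p = 0.000186). For clec-218 they were 441, 502, 499 and 459 in wild type and 146, 163, 224 and 169 in the mutant on OP50. For BW25113 the values were 437, 483, 379 and 496 in wild type and 295, 319, 313 and 317 in the mutant, and the mutant was lower on OP50 than on BW25113. The genotype difference was -1.45 ± 0.12 (adjusted p = 1.05e-05) on OP50 and -0.52 ± 0.09 (adjusted p = 0.00248) on BW25113, with a diet difference in the mutant of 0.84 ± 0.12 (adjusted p = 0.000978) and an interaction of 0.93 ± 0.15 (adjusted p = 0.00129). The BW25113 difference was near the fold required and fell under it without replicate 2 or 4 of wild type or replicate 1 of the mutant on that diet, to as little as -0.47, and after quantile normalization, to -0.48.

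The other interaction above 0 was that of clec-210, a low gene that overlaps srt-56 on the other strand. Its normalized counts were 28.4, 40.4, 35.1 and 45.5 in wild type and 8.23, 6.33, 9.82 and 4.52 in the mutant on OP50. On BW25113 they were 18.6, 16.3, 22.7 and 27.9 in wild type and 23.8, 10.3, 11.3 and 15.7 in the mutant, and the mutant on OP50 lay below all 12 other samples. The genotype difference on OP50 was -2.24 ± 0.27 (SE; adjusted p = 0.000143), that on BW25113 was -0.50 ± 0.30 (adjusted p = 0.29), and the interaction was 1.74 ± 0.40 (adjusted p = 0.0157).

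A pair of genes, clec-3 and clec-47, was lower in the mutant on both diets and lower on BW25113 in both genotypes. For clec-47 the normalized counts were 2401, 2492, 2286 and 2406 in wild type and 934, 917, 883 and 1121 in the mutant on OP50. The BW25113 samples had 935, 926, 850.3 and 885 in wild type and 297, 244, 289.6 and 244 in the mutant. The 4 samples of wild type on BW25113 and the 4 of the mutant on OP50 overlapped, and the mutant on BW25113 was far below both. The genotype differences were -1.32 ± 0.07 (SE) and -1.74 ± 0.08 on OP50 and BW25113 (adjusted p = 3.77e-07 and 1.72e-07), and the diet differences were -1.41 ± 0.04 and -1.84 ± 0.09 in wild type and mutant (adjusted p = 1.74e-08 and 6.96e-07). The interaction of -0.43 ± 0.11 was under the fold for a call (adjusted p = 0.0256).

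For clec-3 the normalized counts were 42.9, 44.4, 53.6 and 39.7 in wild type and 17.5, 20.8, 23.4 and 14.7 in the mutant on OP50. Wild type on BW25113 had 22.98, 17.3, 9.62 and 10.2, and the mutant 2.17, 3.09, 2.83 and 3.14. As in clec-47, the mutant on BW25113 was lowest, with no overlap with any other group. The genotype differences were -1.21 ± 0.20 (SE) on OP50 and -1.995 ± 0.34 on BW25113 (adjusted p = 0.00118 and 0.00289), and the diet differences -1.60 ± 0.27 in wild type and -2.39 ± 0.28 in the mutant (adjusted p = 0.0065 and 0.000205). The diet call in wild type was lost when genes of low level were also tested (adjusted p = 0.056). In the FPKM table the genotype difference on BW25113 was -0.90 and the diet difference in the mutant -1.05, both called, and with a pseudocount of 5 the former was -1.31. The gene overlaps C41H7.2 on the other strand.

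**Figure D4:**
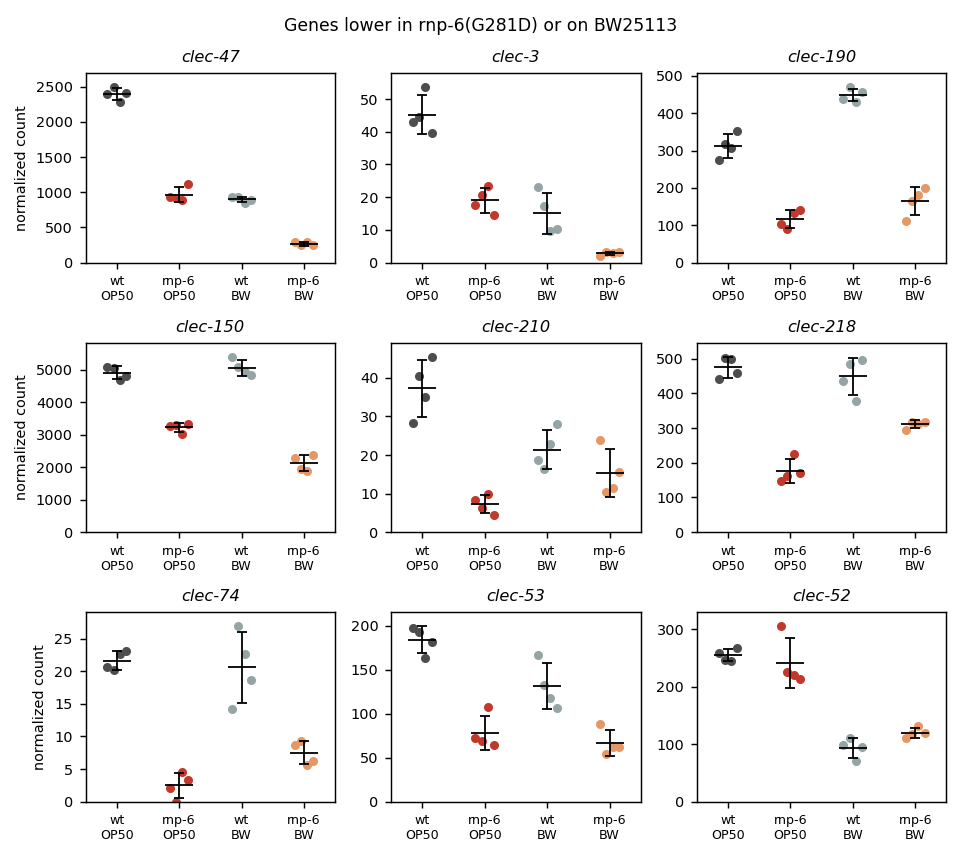
Normalized counts of 9 genes that were lower in the mutant or on BW25113, 1 panel per gene, with the 4 samples of each group as points and the mean ± SD as a black bar; each axis starts at 0. The mutant on BW25113 is the lowest group in clec-47, clec-3 and clec-150, and the mutant on OP50 is the lowest in clec-74, clec-210 and clec-218; clec-52 differs by diet.

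Another 6 genes were lower on BW25113 in both genotypes without a genotype call: clec-7, clec-52, clec-70, clec-79, clec-123 and clec-173. Among these clec-52 is known from Staphylococcus aureus infection. Its normalized counts were 259, 246, 246 and 267 in wild type and 305, 225, 219.9 and 214 in the mutant on OP50. With BW25113 as food, wild type had 99.5, 112, 70.04 and 95.6 and the mutant 110.4, 117, 131 and 119, and no sample on BW25113 reached any sample on OP50. The diet difference was -1.44 ± 0.13 (SE) in wild type (adjusted p = 0.000102) and -0.99 ± 0.13 in the mutant (adjusted p = 0.000393). In clec-7, named after its values were seen, the level fell from 278 to 329 to 185 to 206 normalized counts in wild type and from 324 to 339.6 to 162 to 175 in the mutant, by -0.65 ± 0.08 (adjusted p = 0.000909) and -0.97 ± 0.07 (adjusted p = 7.92e-06).

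The low gene clec-70 had normalized counts of 52.3, 27.3, 24.7 and 33.9 in wild type and 18.5, 21.7, 20.4 and 23.7 in the mutant on OP50. Fed BW25113, wild type showed 0, 5.76, 2.62 and 7.61 and the mutant 5.41, 3.1, 8.5 and 1.05. Every sample on OP50 was above every sample on BW25113, where replicate 1 of wild type was at 0. The gene passed the filter on the mean only through its OP50 samples, so this too is no independent support. The diet difference was -3.16 ± 0.58 (SE) in wild type (adjusted p = 0.00909) and -2.21 ± 0.43 in the mutant (adjusted p = 0.00593). The call in wild type was lost with a pseudocount of 0.1 (adjusted p = 0.0512) and when low genes were also tested (adjusted p = 0.0913). In the FPKM table the differences were -1.62 and -1.08, both called.

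For clec-79 the normalized counts were 111, 116, 78.3 and 108 in wild type and 94.7, 80.4, 61.1 and 157 in the mutant on OP50. For BW25113 the values were 73.4, 42.3, 69.9 and 60.9 in wild type and 48.7, 47.5, 38.8 and 34.6 in the mutant. Mutant samples on OP50 spread widely, with replicate 4 highest. The diet difference was -0.75 ± 0.19 (SE) in wild type (adjusted p = 0.0425) and -1.12 ± 0.26 in the mutant (adjusted p = 0.014). The wild-type call was lost in 6 of 8 omissions (all wild-type samples but replicate 3 on OP50 and replicate 1 on BW25113), with adjusted p of 0.0254 to 0.117, and in the FPKM table and a fit of all 16 samples (adjusted p = 0.0507 and 0.088). Both diet calls were lost when low genes were also tested (adjusted p = 0.158 and 0.071).

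For clec-123 the normalized counts were 143, 121, 81.4 and 107 in wild type and 90.6, 90.4, 77.7 and 153 in the mutant on OP50. On BW25113 they were 66.8, 74.9, 60.3 and 62.6 in wild type and 50.9, 75.4, 34.03 and 41.9 in the mutant, and replicate 4 of the mutant on OP50 was again highest in its group. The diet difference was -0.74 ± 0.17 (SE) in wild type (adjusted p = 0.0262) and -1.02 ± 0.27 in the mutant (adjusted p = 0.0241). The call was lost in 5 of 8 omissions in wild type (replicates 1, 2 and 4 on OP50, and 3 and 4 on BW25113; adjusted p of 0.00671 to 0.0802) and in 3 of 8 in the mutant (replicate 4 on OP50, and 3 and 4 on BW25113; adjusted p of 0.0122 to 0.0687). Both were lost when low genes were also tested (adjusted p = 0.107 and 0.1), and that in wild type in a fit of all 16 samples (adjusted p = 0.0856).

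Sperm marker genes moved with these values. Of 10 listed sperm genes, including gsp-3 and msp-3, 8 were tested. On BW25113 5 of them were called lower in wild type (against 2.59% of all genes tested) and 7 in the mutant (against 7.22%). Between the genotypes 0 of the 8 were called (limma), where 1 on OP50 and 2 on BW25113 had an unadjusted p under 0.05. Their summed normalized counts ranged over 2221 to 3037 in wild type and 2007 to 3620.3 in the mutant on OP50, and over 1397 to 2165 and 924 to 1692 on BW25113. Replicate 4 of the mutant on OP50, which was highest in its group in clec-79, clec-123 and clec-73, also had the highest sum of sperm genes, 3620.3. The part of sperm content in the diet differences of these 3 genes was not tested. In the same fits 0 of 9 oocyte and eggshell markers and 0 of 4 body wall muscle markers were called, with 1 to 3 and 0 to 2 at an unadjusted p under 0.05. Among 5 pharynx markers only marg-1 was called, higher in the mutant on OP50.

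**Figure D5:**
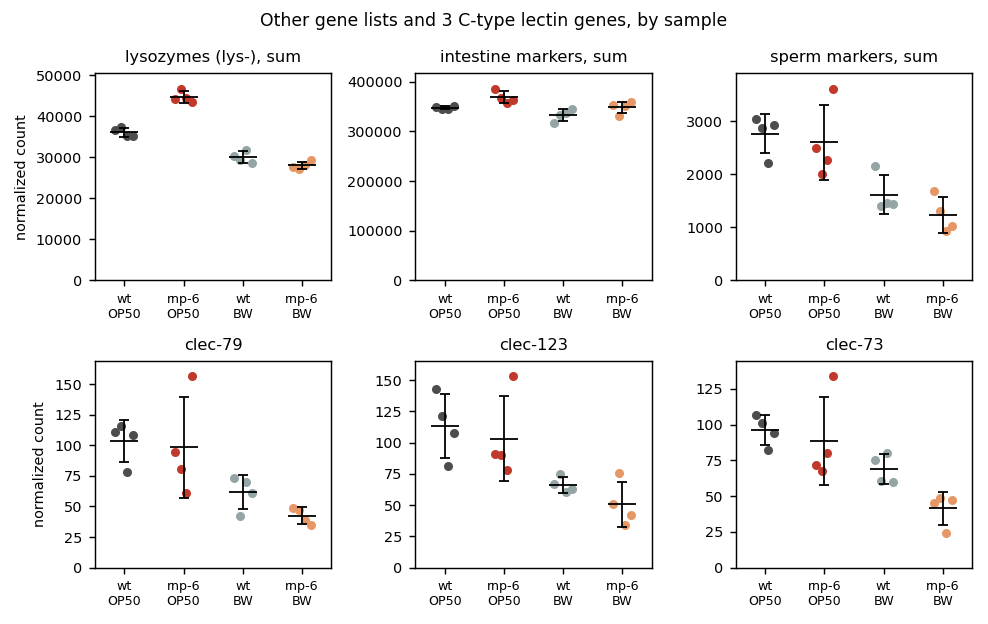
Normalized counts by sample of the summed lysozyme (lys-), intestine marker and sperm marker lists and of clec-79, clec-123 and clec-73, with the 4 samples of each group as points and the mean ± SD as a black bar; each axis starts at 0. Lysozymes are highest in the mutant on OP50 (43397 to 46758 summed counts). Intestine markers are higher in the mutant on OP50 without overlap and overlap between wild type and mutant on BW25113. Sperm markers and the 3 clec genes share a high replicate 4 in the mutant on OP50.

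A single member, clec-78, was higher in the mutant on OP50 and higher on BW25113 in wild type. Its normalized counts were 33.3, 47.4, 63.7 and 30.5 in wild type and 172, 234, 74.6 and 104 in the mutant on OP50. The BW25113 samples had 66.9, 199.7, 173 and 71.04 in wild type and 304, 151, 634 and 194 in the mutant, with a spread of several fold between replicates of the mutant. The genotype difference on OP50 was 1.65 ± 0.35 (SE; adjusted p = 0.0048). Its diet difference in wild type was 1.41 ± 0.37 (adjusted p = 0.0442), and that call was lost in 5 of 8 omissions (replicates 1, 2 and 4 on OP50 and 2 and 3 on BW25113, adjusted p of 0.0232 to 0.124). It was also lost when low genes were tested too (adjusted p = 0.209), in a fit of all 16 samples (adjusted p = 0.086) and in the FPKM table (0.57, adjusted p = 0.108), where the genotype difference on OP50 was 0.67 (adjusted p = 0.0143). In the annotation 5 coding genes on the other strand overlap clec-78, which spans chrIV:3989102-4014235.

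The hypodermal collagen dpy-7, the called member of a list of 5 hypodermis markers, varied between the same samples as clec-78. Its normalized counts were 6.02, 27.3, 18.6 and 14.9 in wild type and 47.3, 99.4, 21.9 and 36.2 in the mutant on OP50. Wild type on BW25113 had 17.5, 68.2, 62.1 and 11.001, and the mutant 125, 103, 253 and 95.2. Within each mutant group the lowest or highest samples coincided, since replicate 3 was lowest on OP50 and highest on BW25113 in both genes. The other listed markers did not share this. In the mutant on BW25113, bli-1 had 34.7, 73.5, 66.2 and 78.6, and rol-6, too low to be tested, had 4.33, 16.5, 1.89 and 54.4. There elt-3 had 325, 277, 291 and 254, and col-19 was lowest in replicate 3. On OP50 replicate 3 of the mutant was also lowest in elt-3, but not in bli-1, col-19 or rol-6. The gene dpy-7 was called higher in the mutant on OP50 (log2FC 1.52) and on BW25113 (2.09) and on BW25113 in the mutant (1.57). The summed level of the 5 markers, set mainly by col-19, overlapped between all groups, with ranges of 74980.4 to 83014 and 72538 to 89407 in wild type and mutant on OP50 and 74904 to 88471 and 77683 to 87684 on BW25113. The part of hypodermal content in the clec-78 values was not tested.

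The X-linked clec-266 showed the same replicate 3, with normalized counts of 619, 739, 275 and 458 in the mutant on OP50 and 1046, 764, 1707 and 825 on BW25113. Its diet difference in the mutant, 1.07 ± 0.31 (SE; adjusted p = 0.0341), was lost in 5 of 8 omissions (replicates 3 and 4 on OP50 and 1, 3 and 4 on BW25113, adjusted p of 0.0197 to 0.082), with the replicate number as a block (adjusted p = 0.0649) and when low genes were also tested (adjusted p = 0.157). The call for clec-36 on BW25113, where the mutant had 59.6, 54.6, 55.7 and 41.9 and wild type 33.9, 37.5, 32.4 and 36.4 normalized counts (log2FC 0.57 ± 0.17, adjusted p = 0.0463), was lost in 7 of 8 omissions (all but replicate 4 of the mutant) with the replicate number as a block (adjusted p = 0.0564) and with samples scaled to equal totals (adjusted p = 0.0506).

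The other called members, named after their values were seen, gave single or paired calls. In the mutant on OP50 clec-84 was higher, at 1312 to 1347 against 696 to 817 normalized counts (0.80 ± 0.05, SE; adjusted p = 1.66e-06), and on BW25113 its difference of 0.47 ± 0.04 was just under the fold. The low clec-28 was also higher in the mutant on OP50 (0.94 ± 0.30, adjusted p = 0.0388). Falls in the mutant on OP50 were called for clec-146 (-0.51 ± 0.08, adjusted p = 0.00115), clec-169 (-0.61 ± 0.20, adjusted p = 0.0424) and clec-196 (-0.87 ± 0.27, adjusted p = 0.0355). In clec-169 the groups overlapped, at 55.65 to 98.9 in wild type and 45.2 to 65.9 in the mutant. In clec-196 replicate 3 of the mutant on OP50 was again the lowest, at 179.9, 176, 64.7 and 110.1 over the 4 replicates. On BW25113 the mutant had less clec-139 (-0.75 ± 0.17, adjusted p = 0.0153), clec-149 (-0.52 ± 0.10, adjusted p = 0.00549) and clec-73 (-0.76 ± 0.23, adjusted p = 0.0475) mRNA than wild type. The diet gave a call in the mutant for clec-175 (-1.15 ± 0.32, adjusted p = 0.0327), clec-73 (-1.07 ± 0.27, adjusted p = 0.0208) and, in the other direction, clec-165 (0.67 ± 0.21, adjusted p = 0.0468). In clec-165 the mutant groups overlapped, at 53.2 to 78.6 on OP50 and 73.6 to 129.9 on BW25113. These genes lie outside the rule for named genes, so their single calls were not followed when samples were left out.

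Of the 13 members known from work on infection that were listed whatever their values, clec-17, clec-39, clec-60 and clec-71 were too low to be tested. The gene clec-60 is induced in the intestine by Staphylococcus aureus and Microbacterium nematophilum. It had normalized counts of 0, 0, 0 and 2.48 in wild type and 6.18, 7.23, 4.53 and 22.6 in the mutant on OP50. With BW25113 as food, wild type had 1.09, 0.961, 1.75 and 0 and the mutant 6.5, 6.19, 1.89 and 3.14. The mutant on OP50 was above wild type in every sample, at a level where no test was made. For clec-17 the values were 20.6, 17.2, 21.1 and 29.4 in the mutant and 1.72, 4.04, 2.06 and 3.31 in wild type on OP50, and 8.66, 4.12, 8.5 and 6.28 and 6.57, 3.84, 4.37 and 0 on BW25113, again highest in the mutant on OP50.

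The other low members of this list were clec-39, known from Serratia marcescens infection, at 2.02 to 6.19 in wild type and 1.03 to 3.02 in the mutant on OP50, and clec-71, at 2.57 to 9.09 and 9.06 to 20.3. The tested clec-49, also known from Serratia marcescens infection, was level across the groups, with normalized counts of 794 to 849.7 and 769.8 to 843 in wild type and mutant on OP50 and 784 to 894 and 748 to 888 on BW25113. It was called in none of the 5 comparisons. The PMK-1 target clec-67 had 345, 368, 303 and 371 in the mutant on OP50 and 264, 159.9, 277 and 264 on BW25113, with replicate 2 low on BW25113. Its diet difference of -0.55 ± 0.16 (SE; adjusted p = 0.0371) was lost in 5 of 8 omissions (replicates 1, 2 and 4 on OP50 and 2 and 4 on BW25113, adjusted p of 0.0284 to 0.0951), and without replicate 2 on BW25113 it was -0.36. The call was also lost after quantile normalization (-0.44, adjusted p = 0.0716) and when low genes were also tested (adjusted p = 0.14).

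C-type lectin genes lie in groups on the chromosomes, and the called ones were spread over all 6. Chromosome IV held 52 members, of which 32 were tested and 18 called, chromosome V held 84, 33 and 12, and chromosome II 48, 23 and 11. Chromosome I held 34 members with 8 tested and 2 called, chromosome III 14 with 6 and 2, and the X chromosome 3, all of them tested and called. Of all genes tested, 13.7% to 24.7% were called in at least 1 comparison, depending on the chromosome, with 21.5% on chromosome IV, 24.7% on V and 19.8% on II. Members within 10000 bp of the next formed 45 clusters that held 150 members, 66 tested and 32 called genes (18.9% of all genes tested were called).

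Calls fell in some clusters and not in others. Of all genes tested, 2.06% had a called interaction below 0, 5.9% were higher in the mutant on OP50 and 7.22% were lower on BW25113 in the mutant. Among the 105 tested members these shares were 10.5%, 17.1% and 23.8%. No cluster was tested as a set. At chrII:12893062-12906644 (WBcel235) lie clec-62, clec-63, clec-64, clec-65 and clec-66, of which 4 were tested and 3 had a called interaction below 0. At chrIV:2823746-2855456 lie clec-80, clec-82, clec-83, clec-84 and clec-85, all 5 tested, of which 3 were higher in the mutant on OP50 and 2 had a called interaction. In the cluster of 11 members at chrIV:3922165-3975721, the mutant on OP50 had more clec-72 and less clec-74 mRNA than wild type, and 5 of the 6 tested genes were lower on BW25113 in the mutant. In the largest cluster, 13 members at chrV:16839121-16869840, 7 were tested, and clec-28 and clec-35 were higher in the mutant on OP50. At chrV:14469231-14482317 none of the 4 tested genes of 5 was called.

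Other immune effectors gave calls in both directions. Lysozymes, which cut bacterial cell walls, were tested in 9 lys- genes. On OP50 the mutant had 3 of them higher and 1 lower, and on BW25113 it had 1 in each direction. The lower gene was lys-10 on both diets. It passed the filter on the mean only through wild type on OP50, so its calls are no independent support. On BW25113 against OP50, wild type had 1 of the 9 genes higher and 5 lower, and the mutant had 8 lower. The 1 higher was lys-2, at a log2FC of 0.5001, barely past the fold for a call. For lys-2 the normalized counts were 2546, 2960.4, 3008 and 2731 in wild type and 6083, 7182, 6268 and 4818 in the mutant on OP50. Fed BW25113, wild type showed 3779.7, 3702, 4712 and 3759 and the mutant 2945, 2801, 3275 and 3194, with the mutant on OP50 above all other samples and an interaction of -1.48 on the log2 scale (adjusted p = 5.13e-06). For lys-1 the interaction was -0.57 (adjusted p = 1.42e-05), and these were the only lys- genes with a called interaction.

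The saposin-like spp- genes, relatives of amoebapores, were tested in 15 members, of which the mutant on OP50 had 1 higher and 5 lower. The exception, spp-18, had normalized counts of 331, 314, 271 and 270.2 in wild type and 1102, 1168, 896 and 1067 in the mutant on OP50. For BW25113 the values were 249.5, 239, 263 and 242 in wild type and 433, 395, 427 and 385 in the mutant, and the mutant on OP50 was higher than every other sample (log2FC 1.83 against wild type, adjusted p = 3.99e-07; interaction -1.11, adjusted p = 1.58e-05). On BW25113 1 spp- gene was higher and 1 lower in the mutant, and the diet gave a call in the mutant for 1 in each direction. Of 6 tested irg- genes, named for their response to infection, the mutant had 2 higher and 3 lower on OP50 and 1 lower on BW25113. On BW25113 against OP50, 2 were lower in wild type and 3 in the mutant, and 2 had an interaction below 0. The 2 with the interaction were irg-2 (-1.93, adjusted p = 0.0241) and irg-7 (-0.50, adjusted p = 8.99e-06). The low irg-1 is counted in the rises on OP50 and in the diet falls of the mutant. It passed the filter on the mean only through the mutant on OP50, so these calls are no independent support.

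The invertebrate lysozyme ilys-5 fell in the mutant on OP50 (log2FC -0.62, adjusted p = 2.77e-07), and ilys-4 was lower on BW25113 in the mutant. Of 6 cnc- genes 1 was lower and of 4 abf- genes 1 was higher in the mutant on OP50, and of 12 fipr- genes 1 was higher on each diet. Among 19 genes of immune signalling, which include tir-1, sek-1, pmk-1 and the transcription factors atf-7, elt-2 and hlh-30, only vhp-1 and zip-2 were called. The phosphatase vhp-1, which dampens MAP kinase signalling, was at 462, 444, 576 and 578 in wild type and 691, 622, 924 and 962 in the mutant on OP50 (log2FC 0.62, adjusted p = 0.00831) and lower on BW25113 in the mutant (-0.80, adjusted p = 0.00698). The bZIP factor zip-2 was lower on BW25113 in the mutant (-0.75, adjusted p = 9.45e-06).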

How the data were processed

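Libraries depleted of ribosomal RNA were made with a stranded kit from whole day 1 adults and sequenced in pairs. The authors quantified transcripts with kallisto 0.46.1 on WBcel235 and used DESeq2 1.24 for each pair of groups; Cufflinks 2.2.1 is also listed in the submitters' processing notes. The authors deposited normalized counts, a signal per gene made by dividing estimated gene counts by median-of-ratios size factors, and FPKM per gene. Raw counts were not used here, so depth is known only from totals of normalized counts and no counting intervals are given.

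All 16 samples were used, grouped by genotype and diet. Values were taken as log2(normalized count + 1) for 15799 genes with a mean of at least 10. Pairs of groups were fitted on their 8 samples and the interaction on all 16 in R 4.3.3 by limma 3.58.1 (a linear model with trended eBayes), two-sided, with Benjamini-Hochberg adjustment over all genes tested. With 4 samples against 4, an exact permutation test of a single gene over its 70 divisions cannot give a p under 0.0286, the value of every pair of groups without overlap. Coordinates and overlaps come from Ensembl's WBcel235 annotation. Figures were drawn with matplotlib 3.10.9. In simulated data with 200 changed genes of 15799, 153 were recovered at a log2 change of 1 in the OP50 comparison of the genotypes and 131 for the interaction, with 5 false calls each. At a log2 change of 0.75, 127 and 107 were recovered, with 1 and 3 false calls. The simulated errors were independent between samples, with a single SD per gene. The data differ, with correlated samples and more calls (932 higher and 884 lower for genotype on OP50), so these rates may not hold for them.

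Samples of the same replicate number deviated together in 3 comparisons. Correlations over 10252 genes were 0.20 to 0.30 for genotype on OP50 and 0.10 to 0.47 for genotype on BW25113. For diet in wild type they were 0.21 to 0.56, and in all 3 every pair was over 0.1. This was not so for diet in the mutant (-0.06 to 0.27). The best match in the other group had the same number for 2 of 4 samples for genotype on OP50. It did for 3 of 4 for genotype on BW25113 and for diet in wild type, and for 1 of 4 for diet in the mutant. The labels give only the number, so a pairing is not established. No main fit used the numbers, and the replicate block was an alternative run for all 5 comparisons. Named genes were, in each comparison, up to 6 called members with the largest rise and 6 with the largest fall (without overlap between groups for pairs of groups), the 8 members with the highest mean FPKM and 13 members known from infection. The members and lists were chosen with earlier results of these data known.

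Alternatives were pseudocounts of 0.1 and 5, no filter, a minimum mean of 100, quantile normalization, equal totals, the FPKM table with 0.1 added to each value, a replicate block, a fit of all 16 samples, other thresholds on log2FC, and leaving out each sample.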

Additional observations from a re-analysis of the deposited data

Results flagged for a closer look

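Of 144 groups of 4 samples looked at for the named genes, 2 held a sample far from the other 3, where chance would give about 7.2. In clec-52, replicate 1 of the mutant on OP50 was at 305 normalized counts, with the others between 214 and 225. In clec-67, replicate 2 of the mutant on BW25113 was at 159.9, with the others between 264 and 277.

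For 13 genes the diet difference differed between the genotypes by the test of the interaction. The values, as the log2 diet difference in the mutant minus that in wild type, were below 0 in 11: clec-125 (-1.47), clec-72 (-1.12), clec-4 (-1.11), clec-265 (-0.97), clec-66 (-0.88), clec-85 (-0.87), clec-62 (-0.86), clec-150 (-0.65), clec-41 (-0.56), clec-83 (-0.55) and clec-63 (-0.52). They were above 0 in clec-210 (1.74) and clec-218 (0.93). In clec-150 the diet difference was -0.60 in the mutant and 0.04 in wild type, and the mutant was lower than wild type on both diets.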

How the results depend on the processing

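Counts of called C-type lectin genes moved by over 1.5 times mainly with the fold threshold and the filter on low values, which change the genes admitted. For genotype on OP50 (33 genes), 20 were called with a mean of at least 100 and 12 with an absolute log2FC over 1, and 28 to 32 when a sample was left out. For genotype on BW25113 (18) the counts were 10, 8 and 14 to 17. For diet in wild type (10) they were 6, 5 and 6 to 11, with 5 without a filter and 16 without a threshold on log2FC; the 6 was reached without replicate 1 of wild type on OP50. For diet in the mutant (28) they were 16, 12 and 19 to 29, with 19 without replicate 4 of the mutant on OP50. For the interaction (13) 4 were called over 1 and 10 to 14 with a sample left out. With a replicate block the 5 counts were 33, 19, 13, 25 and 14. Among named genes the replicate block lost the calls of clec-36, clec-35 and clec-266 and no other. Of 73 called values of named genes, 53 kept the call under each alternative run for them and 20 lost it under at least 1; other thresholds on log2FC were tried for the counts only, and the minimum mean of 100 for the 46 values of genes above it. Of 1291 alternative values 1178 kept the call, 113 lost it and 0 changed sign. Without a filter on low values 14 of the 73 lost the call. From the FPKM values, 11 log2FC, of clec-3, clec-42, clec-70, clec-74, clec-78 and clec-86, differed by over 1.5 times, all toward 0, and 5 calls were lost. Here 0.1 was added to the FPKM before log2, which pulls log2FC toward 0 where FPKM is near or under 0.1. In clec-3 on BW25113, FPKM was 0.105 to 0.240 in wild type and 0.027 to 0.052 in the mutant. A smaller value of such a gene is thus not by itself a disagreement between FPKM and counts. Raw depth is not used here, so counting error was not separated from the other spread between replicates.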

Other observations

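The FPKM table held 5 further C-type lectin genes that carry no clec symbol in the normalized count table or are not in it, clec-44, clec-93, clec-116, clec-177 and clec-226. All were low. The highest group mean was that of clec-44 in wild type on OP50, 0.119 ± 0.045 FPKM (SD, n = 4), against 0.0764 ± 0.010 in the mutant, and 0.108 ± 0.043 and 0.0563 ± 0.037 on BW25113. The gene clec-226 was listed at 0 in every group mean.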
